A study of Sus scrofa with 4 samples.

Results

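The desmosome genes DSC1, DSC2, DSC3, DSG1, DSG2, DSG3, DSG4, DSP, PKP1 and JUP were followed through the epidermal libraries of LGR5-H2B-GFP pigs. They were chosen by name as the desmosomal cadherins and plaque proteins, and all 10 had a row among the 29837 named genes of the count table. RNA came from juvenile pigs 88R and 95R, with 1 library of the LGR5-high population (labelled GFP-hi) and 1 library of the LGR5-negative population (labelled GFP-neg) from each animal. Both populations came from the same pigs, so both carried the knock-in, a nuclear H2B-GFP placed in exon 1 of a single LGR5 allele. The line was founded by nuclear transfer from clonal edited fetal fibroblasts, and whether 88R and 95R were clones or their progeny, and their strain, are not given in the sources used here. GFP in the nucleus is diluted at each division, and GFP-low cells entered neither library. Epidermis and hair were freed from dermis with Dispase, dissociated with trypsin, and live cells were sorted.

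Desmosomes are the calcium-dependent junctions that tie the keratin filaments of neighbouring keratinocytes together. In each junction desmocollins and desmogleins, which are transmembrane cadherins, meet those of the next cell. Inside the cell, plakoglobin and the plakophilins bind the cadherin tails and recruit desmoplakin, which holds the keratin filaments. In stratified epidermis the cadherins are exchanged as cells move upwards: DSC3 and DSG3 are best known from the basal and lower layers, DSC1 and DSG1 from the upper layers, and DSC2 and DSG2 from a broad range of epithelia.

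The totals of the 4 libraries lay between 30696803 and 32463362 counts on named genes, so that a gene with 3 counts, taken as the floor of detection, corresponded to 0.0873 to 0.105 normalised CPM (the count scaled to a common library total). LGR5 had 132 and 188 CPM in LGR5-high and 1.26 and 3.61 CPM in LGR5-negative. Of the 4 basal epidermal marker genes in the table, KRT5, KRT15 and TP63 were not called and ITGB4 was lower in LGR5-high (log2 fold change -0.38). The call of ITGB4 was lost in 5 of 15 alternative settings, among them library size only (log2 fold change -0.16). KRT15 was called higher with the pig fitted as a replicate block, in edgeR (adjusted p = 2.13e-06) and in DESeq2, and in 3 of the 15 alternatives in all. Its log2 fold changes within the pigs were 0.64 (88R) and 0.83 (95R). With 4 libraries the edgeR and DESeq2 fits leave few residual degrees of freedom, and the block leaves fewer. Their p-values therefore rest largely on variance estimates shared across genes. KRT5 alone lay between 23664 and 29558 CPM in all 4 libraries. The spinous markers KRT1, KRT10, KRTDAP and SBSN were lower in 4 of 4, with a median log2 fold change of -3.33, and their summed level was 5314 to 5883 CPM in LGR5-high and 55100 to 64321 CPM in LGR5-negative. All 3 follicle stem cell markers (LGR5, SOX9 and LHX2) and all 3 inner root sheath markers tested (KRT25, KRT27 and TCHH) were higher. Cells were sorted on the LGR5 reporter, so a higher level of LGR5 itself was set by the sort. Summed markers of melanocytes (5 genes), immune cells (4 genes), fibroblasts (4 genes), endothelium (3 genes) and smooth muscle (3 genes) lay between 1.70 and 443 CPM in every library, with the highest sum for fibroblasts in LGR5-high of pig 95R, where COL1A1 alone had 331 CPM. CD3E had 0 counts in both LGR5-high libraries, LUM had 0 counts in LGR5-high of pig 95R, and DES had 0 counts in 1 library of each population.

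The desmosomal cadherins did not move together between the populations. Expression of DSC2 and DSG3 was higher in LGR5-high cells, by 4.56-fold and 1.83-fold, whereas DSC1, DSC3, DSG1 and PKP1 were lower, by 9.31-fold, 1.71-fold, 2.20-fold and 1.81-fold. Messages of the shared plaque proteins, DSP and JUP, differed by 1.14-fold each and were not called. Thus 2 members were higher, 4 were lower and 4 were not called by the quasi-likelihood test of edgeR, with the Benjamini-Hochberg adjusted p under 0.05 over all 15980 genes that passed the filter on low counts, among them all 10 members. Among all genes tested, 22.7% were higher and 22.0% were lower. The members had a median log2 fold change of -0.60, beside 0.02 over all genes tested. In bulk libraries of sorted cells, fewer cells of a type and less RNA per cell cannot be told apart. Without TMM normalisation (library size only), which moved the median of all tested genes to 0.24, and with upper quartile scaling, which moved it to 0.11, the same 2 members were higher and the same 4 were lower.

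**Figure D1:**
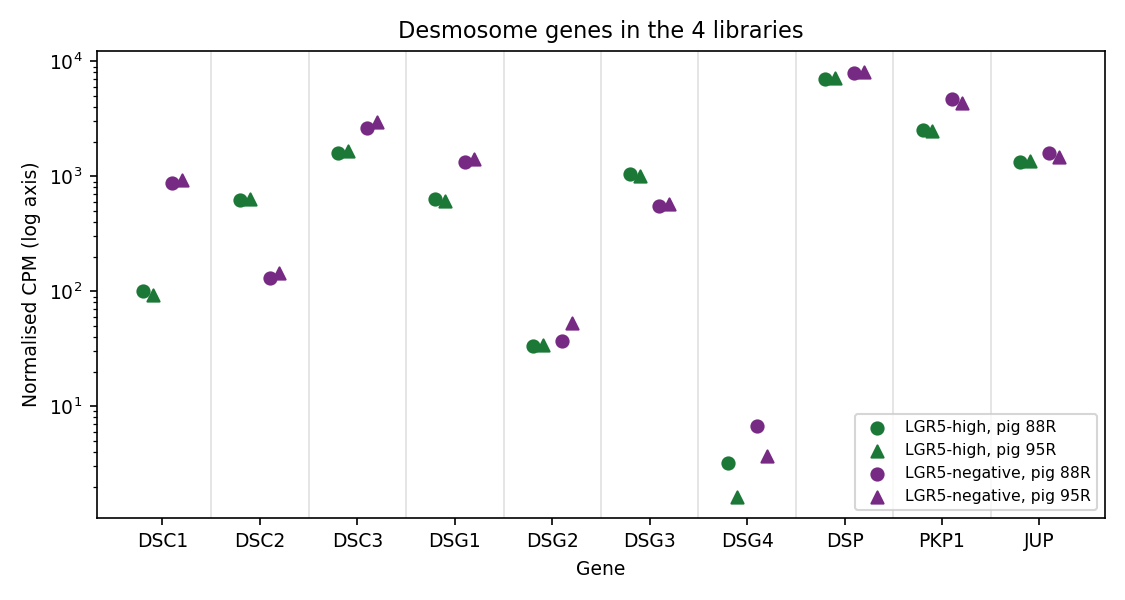
Normalised CPM on a log axis for each desmosome gene, with 1 point per library (green, LGR5-high; purple, LGR5-negative; circles, pig 88R; triangles, pig 95R). The green points lie above the purple ones for DSC2 and DSG3 and below them for the other 8 genes, closely so for DSP, JUP, DSG2 and DSG4; heights of different genes are not comparable because counts were not divided by transcript length.

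By rank of TMM-normalised CPM, both LGR5-high libraries lay above both LGR5-negative libraries for 2 members and below them for 8. These ranks depend on the scaling. With library size only, the log2 fold changes of DSP and JUP were slightly above zero (0.04 each). Relative to DSP counts of the same library, DSG2 and DSG4 overlapped between the populations. Over all tested genes, 39.2% lay fully above and 37.4% lay fully below on the TMM-normalised scale.

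Among the desmocollins, DSC1 marks keratinocytes that have left the basal layer. In LGR5-high cells of pigs 88R and 95R it had 99.5 and 93.4 CPM, and it had 867 and 928 CPM in LGR5-negative cells. The LGR5-negative values were far above those of LGR5-high in each pig, and the pigs differed little within a population. The log2 fold change of DSC1 was -3.22 (95% interval -3.45 to -2.99, edgeR adjusted p = 4.09e-05). The spinous markers had -3.56 (KRT1), -3.44 (KRT10), -3.22 (KRTDAP) and -1.54 (SBSN) on the same scale. DSC1 was also called lower under each of the 15 alternative settings, with log2 fold changes between -3.27 and -2.99 and adjusted p-values between 4.04e-205 and 0.0375.

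DSC2, the desmocollin found across simple and stratified epithelia, moved the opposite way. It had 621 and 636 CPM in LGR5-high and 131 and 145 CPM in LGR5-negative of pigs 88R and 95R. Every LGR5-high value exceeded every LGR5-negative value. The log2 fold change of DSC2 was 2.19 (95% interval 1.97 to 2.42, edgeR adjusted p = 6.80e-05). The pigs gave 2.25 (88R) and 2.13 (95R). Across the 15 alternatives DSC2 remained called, with log2 fold changes from 2.11 to 2.41 and adjusted p-values from 1.32e-91 to 0.043.

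DSC3, the desmocollin of the basal and lower spinous layers, had 1591 and 1672 CPM in LGR5-high and 2611 and 2980 CPM in LGR5-negative. It was lower in the LGR5-high library of each pig. The change of DSC3 was -0.78 on the log2 scale (95% interval -1.03 to -0.52, edgeR adjusted p = 0.00236). DSC3 was not called with a t-test (Student) of log2 CPM or with Bonferroni adjustment, and its adjusted p-values over all alternatives ran from 1.80e-13 to 1.

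Shares within a class do not depend on the scaling between libraries. Of all desmocollin counts, DSC1 made up 4.31% (95% Wilson interval 4.17 to 4.45) and 3.89% (3.76 to 4.03) in LGR5-high of pigs 88R and 95R, and 24.0% (23.8 to 24.3) and 22.9% (22.7 to 23.1) in LGR5-negative. DSC2 made up 26.9% (26.6 to 27.2) and 26.5% (26.2 to 26.8) in LGR5-high, and 3.62% (3.50 to 3.73) and 3.58% (3.48 to 3.68) in LGR5-negative. The share of DSC3 varied much less, at 68.8% (68.5 to 69.1) and 69.6% (69.3 to 69.9) in LGR5-high and 72.4% (72.1 to 72.6) and 73.5% (73.3 to 73.8) in LGR5-negative. DSC1 and DSC2 therefore held about the same part of the desmocollin counts in opposite populations. These intervals treat each read as an independent draw and leave out variation between pigs. PCR reads without molecular identifiers are not independent molecules, so the intervals can be too narrow even for counting error. Counts were not divided by transcript length.

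**Figure D2:**
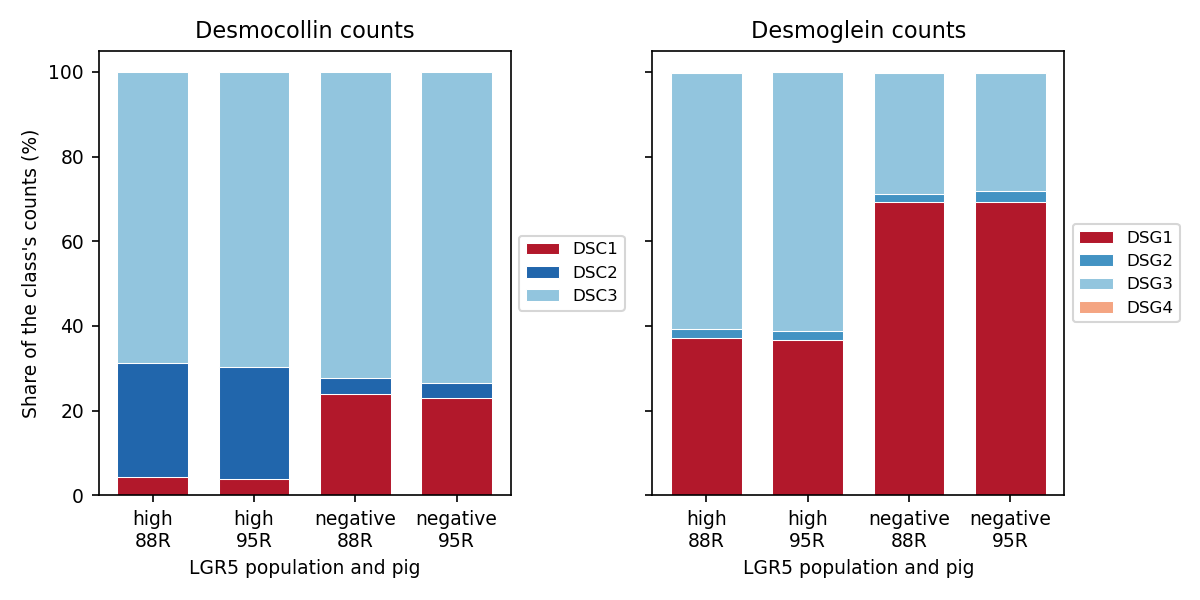
Stacked bars of each gene's share of all desmocollin counts (left) and all desmoglein counts (right), in percent, for the 4 libraries. DSC2 takes 26.5% to 26.9% of desmocollin counts in LGR5-high and 3.58% to 3.62% in LGR5-negative, and DSG1 takes 36.8% to 37.3% of desmoglein counts in LGR5-high and 69.2% to 69.3% in LGR5-negative; DSG4 is too small to see.

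Ratios within a library restate the same counts for pairs of isoforms, so they are not separate support for the changes above. There were 0.0626 and 0.0558 DSC1 counts for each DSC3 count in LGR5-high of pigs 88R and 95R, and 0.332 and 0.312 in LGR5-negative. The ratio of DSC1 to DSC3 was thus 5.44-fold lower in LGR5-high (log2 change -2.44; -2.41 for pig 88R, -2.48 for pig 95R). The ratio of DSC2 to DSC3 was 7.82-fold higher, and the log2 changes of the pigs were 2.97 and 2.97. The ratio of DSC1 to DSC2 went from 6.64 and 6.40 in LGR5-negative to 0.160 and 0.147 in LGR5-high, a 42.5-fold difference. For each of the 7 ratios computed, the libraries of the populations did not overlap, and the exact 2-sided permutation p-value was 0.333, before and after Benjamini-Hochberg adjustment. This is the smallest value that 2 against 2 libraries can give, so these ratios could not pass a threshold of 0.05. How often ratios of other gene pairs fail to overlap was not computed.

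Among the desmogleins, DSG1, the desmoglein of the upper epidermis and the autoantigen of pemphigus foliaceus, had 641 and 611 CPM in LGR5-high and 1328 and 1424 CPM in LGR5-negative. Both LGR5-negative values were above both LGR5-high values. DSG1 changed by -1.14 on the log2 scale (95% interval -1.35 to -0.92, edgeR adjusted p = 3.59e-04), and the pigs gave -1.05 (88R) and -1.22 (95R). DSG1 was called lower in 14 of the 15 alternatives and not with Bonferroni adjustment, where the adjusted p-value was 0.277.

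DSG3, the desmoglein of the lower layers and the autoantigen of pemphigus vulgaris, had 1042 and 1014 CPM in LGR5-high and 548 and 574 CPM in LGR5-negative. Here the LGR5-high libraries were the higher ones in each pig. The log2 fold change of DSG3 was 0.87 (95% interval 0.67 to 1.07, edgeR adjusted p = 6.65e-04), and of the 15 alternatives only Bonferroni adjustment, at 0.783, did not call it. DSG3 and DSC3, both known from the lower layers, therefore moved in opposite directions, and the ratio of DSG3 to DSC3 counts went from 0.210 and 0.192 in LGR5-negative to 0.655 and 0.606 in LGR5-high of pigs 88R and 95R, a 3.14-fold rise.

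DSG1 made up 37.3% (95% Wilson interval 36.9 to 37.7) and 36.8% (36.4 to 37.2) of the desmoglein counts in LGR5-high of pigs 88R and 95R, and 69.2% (68.8 to 69.6) and 69.3% (68.9 to 69.7) in LGR5-negative. DSG3 made up 60.6% (60.2 to 61.0) and 61.1% (60.7 to 61.5) in LGR5-high, and 28.5% (28.2 to 28.9) and 27.9% (27.6 to 28.3) in LGR5-negative. The larger part of the desmoglein counts thus belonged to DSG3 in LGR5-high and to DSG1 in LGR5-negative, without allowance for transcript length. The ratio of DSG1 to DSG3 was 4.03-fold lower in LGR5-high, a log2 change of -2.01, with -1.98 and -2.04 in the 2 pigs. DSG1 fell less than DSC1, its partner in the upper layers, and the ratio of DSG1 to DSC1 counts was 6.44 and 6.54 in LGR5-high and 1.53 and 1.53 in LGR5-negative.

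DSG2, the desmoglein found wherever epithelia form desmosomes, had 33.3 and 34.1 CPM in LGR5-high and 37.2 and 53.1 CPM in LGR5-negative. The LGR5-negative library of pig 95R stood above the other 3. Its log2 fold change was -0.42 (95% interval -0.86 to 0.01, edgeR adjusted p = 0.101), so it was not called. The pigs gave -0.16 (88R) and -0.64 (95R). With the replicate block, which fits the pig as a term, DSG2 had an adjusted p of 0.00942 in edgeR and of 0.0594, not called, in DESeq2. With the LGR5-negative library of pig 88R left out the edgeR adjusted p was 0.0077, with a log2 fold change of -0.66. Without the LGR5-negative library of pig 95R the log2 fold change was -0.15 and the adjusted p-value 0.377.

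DSG4, the desmoglein of the hair shaft and the granular layer, had the fewest counts of the members, with 111 and 54 in LGR5-high and 193 and 111 in LGR5-negative of pigs 88R and 95R. These corresponded to 3.23 and 1.63 CPM and to 6.77 and 3.67 CPM, so the LGR5-high library of pig 88R nearly reached the LGR5-negative library of pig 95R. The log2 fold change was -1.10 (95% interval -2.19 to -0.01, edgeR adjusted p = 0.0914), and DSG4 was not called. Within each pig it was lower in LGR5-high by a similar amount, -1.05 in 88R and -1.14 in 95R on the log2 scale. With the pig as a replicate block DSG4 was called lower (edgeR adjusted p = 7.09e-04, DESeq2 adjusted p = 0.0269), and so it was without the LGR5-negative library of pig 95R (log2 fold change -1.48, adjusted p = 0.0293). Leaving out the LGR5-negative library of pig 88R, or the LGR5-high library of pig 95R, gave -0.60 and -0.69, and leaving out the LGR5-high library of pig 88R gave -1.68. The hair shaft keratin genes KRT31 and KRT35 were lower as well. The call of KRT31 was lost in 5 of the 15 alternatives, among them library size only, and that of KRT35 in 2. The summed level of the 2 hair shaft markers in the table was 55.3 to 95.5 CPM in LGR5-high and 288 to 384 CPM in LGR5-negative. Their part in the value of DSG4 was not tested.

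With the replicate block in edgeR 2 members were higher and 6 were lower, DSG2 and DSG4 being the additions, beside 28.5% higher and 27.2% lower among all tested genes. With the same block in DESeq2 2 were higher and 5 were lower, DSG4 being the addition. Over all 15980 genes tested, DESeq2 with this block called 3002 higher and 3146 lower.

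In the summed levels, the desmocollin genes had 2312 and 2402 CPM in LGR5-high and 3609 and 4053 CPM in LGR5-negative. The desmoglein genes had 1719 and 1661 CPM in LGR5-high and 1919 and 2054 CPM in LGR5-negative. No test was made of these sums. With library size only, the desmocollin sums were still apart (2507 and 2586 against 3318 and 3774 CPM), but the desmoglein sums overlapped (1864 and 1788 against 1765 and 1913 CPM), so no direction is given for the desmogleins as a class.

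The 7 cadherin genes are neighbours. In the RefSeq annotation of Sscrofa11.1, used here only for names and gene order, they followed one another as DSC3, DSC2, DSC1, DSG1, DSG4, DSG3 and DSG2, while DSP, PKP1 and JUP were on other chromosomes. Along this row the log2 fold changes were -0.78, 2.19, -3.22, -1.14, -1.10, 0.87 and -0.42. The genes with the largest rise and the largest fall of the members, DSC2 and DSC1, were thus adjacent, and DSG3 rose between DSG4 and DSG2, which were not called. The long noncoding RNA LOC102160593, annotated between DSC1 and DSG1, had 3 to 9 counts per library and did not pass the filter. Another, LOC110261189, annotated between DSG3 and DSG2, had 27 to 43 counts per library and was not called (log2 fold change 0.10). Beyond DSG2, TTR had 0 or 1 count in each library. The sources used here do not say whether counting used the strand, so reads of overlapping transcripts could not be told apart.

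**Figure D3:**
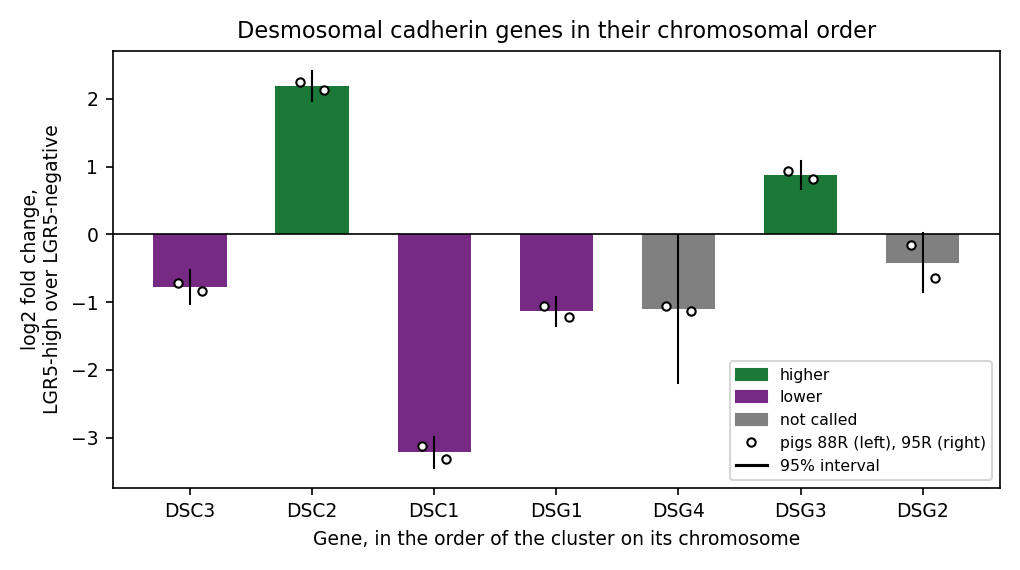
Log2 fold change of LGR5-high over LGR5-negative for the 7 desmosomal cadherin genes in their order along the chromosome, with the 95% interval as a line and the pigs as open circles. DSC2 (2.19) and DSG3 (0.87) stand above zero, and DSC1 (-3.22), next to DSC2, is the lowest.

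In the plaque, desmoplakin (DSP), the link to keratin filaments, had 6982 and 7152 CPM in LGR5-high and 7966 and 8083 CPM in LGR5-negative. The LGR5-high libraries were slightly lower in each pig. The log2 fold change of DSP was -0.18 (95% interval -0.41 to 0.04, edgeR adjusted p = 0.158), and it was 0.04 with library size only. Plakoglobin (JUP), also known as gamma-catenin, had 1343 and 1354 CPM in LGR5-high and 1584 and 1485 CPM in LGR5-negative. Its log2 fold change was -0.19 (95% interval -0.40 to 0.02, edgeR adjusted p = 0.126) and 0.04 with library size only. Neither gene was called under any of the 15 alternatives, with adjusted p-values from 0.0506 to 1 for DSP and from 0.0767 to 1 for JUP.

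Plakophilin 1 (PKP1), which gathers desmosomal proteins at the membrane and is most abundant in the suprabasal layers, had 2505 and 2493 CPM in LGR5-high and 4703 and 4352 CPM in LGR5-negative. The populations were well apart in both pigs. For PKP1 the log2 fold change was -0.86 (95% interval -1.09 to -0.63, edgeR adjusted p = 0.00113). PKP1 was not called with a t-test (Student) of log2 CPM or with Bonferroni adjustment, and its adjusted p-values ran from 8.88e-18 to 1.

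Set against desmoplakin within the same library, JUP was steady, with 192 and 189 JUP counts for 1000 DSP counts in LGR5-high of pigs 88R and 95R and 199 and 184 in LGR5-negative. On this scale the populations stayed apart for DSC1, DSC2, DSC3, DSG1, DSG3 and PKP1, in the same directions as on the CPM scale, but overlapped for DSG2 (4.77 and 4.77 against 4.67 and 6.57) and DSG4 (0.462 and 0.229 against 0.850 and 0.454). For 1000 DSP counts there were 89.0 and 88.9 DSC2 counts in LGR5-high, and 16.4 and 17.9 in LGR5-negative. DSC1 had 14.3 and 13.1 counts for 1000 DSP counts in LGR5-high and 109 and 115 in LGR5-negative. DSG3 had 149 and 142 against 68.8 and 71.0, and PKP1 had 359 and 349 against 590 and 538.

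**Figure D4:**
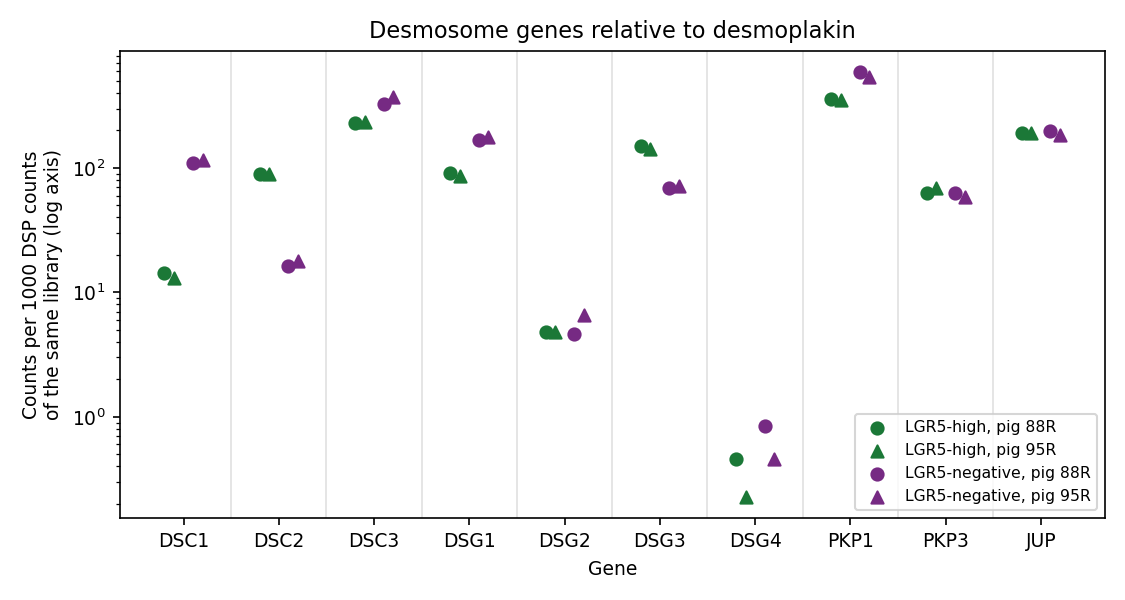
Counts for 1000 DSP counts of the same library, on a log axis, for the other 9 desmosome genes and PKP3 in the 4 libraries (colours and symbols as in the plot of CPM). JUP and PKP3 lie at nearly 1 height in all libraries, whereas DSC2 and DSG3 are higher and DSC1, DSC3, DSG1 and PKP1 are lower in LGR5-high.

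Grouped by the layer they are known from, the differentiation isoforms DSC1, DSG1, DSG4 and PKP1 were lower in 3 of 4 and not called in 1, with a median log2 fold change of -1.12. The basal or broad isoforms DSC2, DSC3, DSG2 and DSG3 were higher in 2, lower in 1 and not called in 1, with a median of 0.23. The same values over all tested genes were 22.7% higher, 22.0% lower and a median of 0.02. The 4 spinous markers named above were lower in the same libraries. Of the granular markers, CASP14 was lower (log2 fold change -2.72), while LOR (0.20) and IVL (-0.16) were not called. The part of spinous and granular cells in these values was not tested.

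Other desmosomal and corneodesmosomal genes were lower in 4 of 7, higher in 1 and not called in 2, with a median log2 fold change of -0.74, beside 22.7% higher, 22.0% lower and a median of 0.02 over all tested genes. The plakins periplakin (PPL) and envoplakin (EVPL), which join desmosomes to the cornified envelope, had log2 fold changes of -1.32 (adjusted p = 1.66e-04) and -1.09 (edgeR adjusted p = 7.86e-04). PPL had 205 and 204 CPM in LGR5-high and 519 and 500 CPM in LGR5-negative. Kazrin (KAZN), a binding partner of periplakin, had a log2 fold change of -1.55 (edgeR adjusted p = 7.80e-04). The tetraspan PERP, a desmosomal membrane protein that is a target of p63, fell by 0.74 (edgeR adjusted p = 0.00189), from 2583 and 2508 CPM in LGR5-negative to 1463 and 1596 CPM in LGR5-high. PERP, EVPL and KAZN were not called with a t-test (Student) of log2 CPM or Bonferroni adjustment, nor was PPL with the latter.

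The other plakophilins did not follow PKP1. Plakophilin 3 (PKP3), which is found throughout the living epidermis, had 440 and 491 CPM in LGR5-high and 504 and 469 CPM in LGR5-negative. These values overlapped, and its log2 fold change was -0.06 (95% interval -0.29 to 0.17, edgeR adjusted p = 0.611), or 0.16 with library size only. Plakophilin 2 (PKP2), the plakophilin of simple epithelia and heart, had 16.9 and 16.0 CPM in LGR5-high and 13.2 and 10.6 CPM in LGR5-negative. Its log2 fold change was 0.47 (95% interval 0.08 to 0.85, edgeR adjusted p = 0.0543), which was not called. With the replicate block it was called in edgeR (adjusted p = 0.00862) and not in DESeq2 (0.117). PKP2 was also called with limma-voom (adjusted p = 0.0462). It was called without the LGR5-negative library of pig 88R (log2 fold change 0.62, edgeR adjusted p = 0.0314) and not without any of the other 3 libraries (0.150 to 0.212).

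Corneodesmosin (CDSN), the glycoprotein that coats desmosomes of the granular layer and inner root sheath as they become corneodesmosomes, was higher by a size that 1 library set. It had 694 and 6761 counts in LGR5-high of pigs 88R and 95R and 146 and 213 in LGR5-negative, or 20.2 and 205 CPM against 5.12 and 7.05 CPM. Both pigs were higher in LGR5-high, pig 95R by far the more. The log2 fold change was 4.20 (95% interval 1.55 to 6.86, edgeR adjusted p = 0.0238), and the pigs gave 1.97 (88R) and 4.85 (95R). Without the LGR5-high library of pig 95R it was 1.73 (adjusted p = 0.00962), and without that of pig 88R it was 5.06. CDSN was not called without the LGR5-negative library of pig 88R (adjusted p = 0.0591), and the call was also lost with a t-test (Student) of log2 CPM, limma-voom and Bonferroni adjustment. The inner root sheath genes KRT25, KRT27 and TCHH, which were higher in LGR5-high, were each lower in the LGR5-high library of pig 95R than in that of pig 88R (536 against 738 CPM for KRT25). Between the same libraries the granular marker IVL was higher in pig 95R (40.6 against 23.9 CPM). The granular markers LOR (1.27 against 2.44 CPM) and CASP14 (13.3 against 19.2 CPM) were lower in pig 95R. The part of these cell types in the value of CDSN was not tested.

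**Figure D5:**
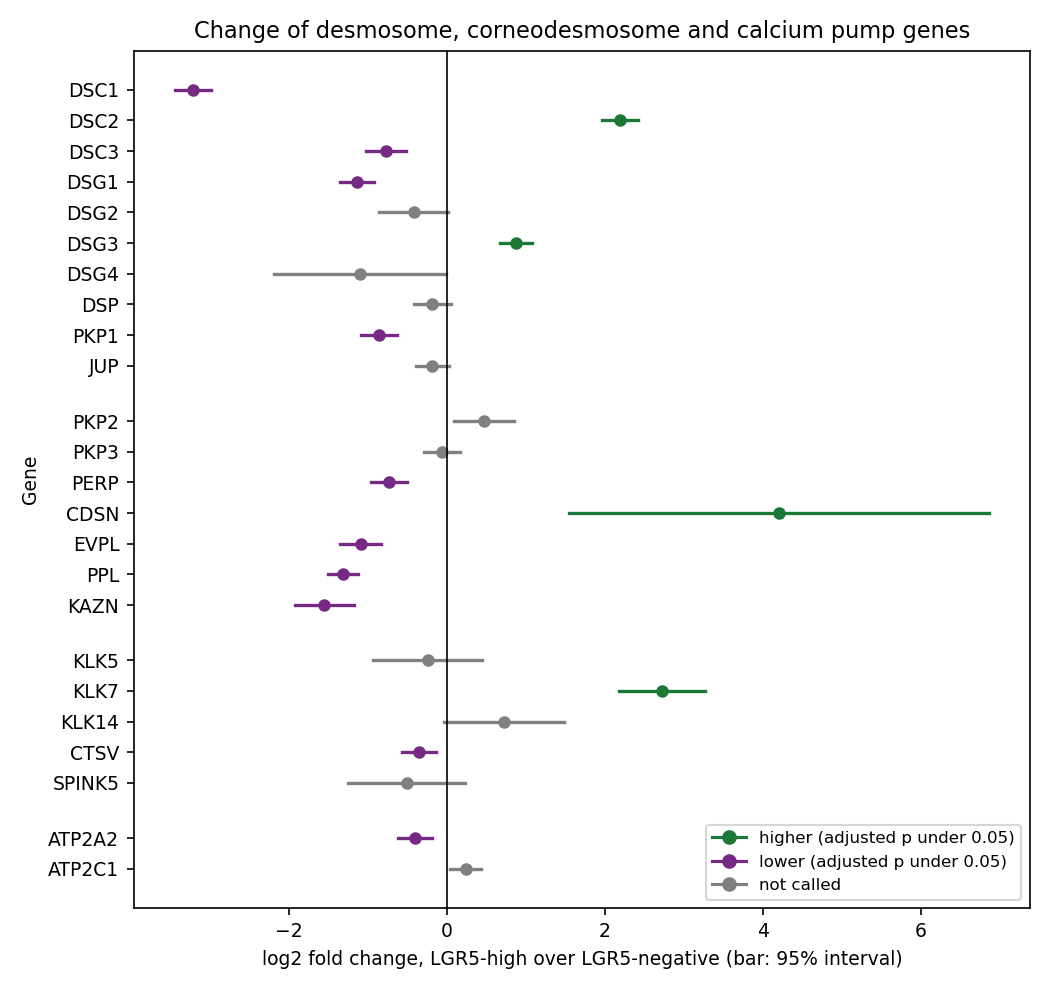
Log2 fold change of LGR5-high over LGR5-negative with its 95% interval for the desmosome genes (top), other desmosomal and corneodesmosomal genes, corneodesmosome proteases with their inhibitor, and calcium pumps (bottom). Green genes were called higher, purple genes lower and grey genes were not called; DSC1 (-3.22) and CDSN (4.20) mark the ends, and CDSN has the widest interval.

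Corneodesmosomes are taken apart by proteases at the skin surface. KLK7, a kallikrein that cleaves DSC1 and CDSN, had 10.9 and 12.0 CPM in LGR5-high and 1.97 and 1.49 CPM in LGR5-negative. It was higher in each pig, with a log2 fold change of 2.72 (edgeR adjusted p = 4.23e-04), and it was not called with a t-test (Student) of log2 CPM or Bonferroni adjustment. KLK5 and KLK14, kallikreins of the same pathway, had log2 fold changes of -0.24 and 0.72 and were not called. Their counts were low, at 63 to 88 per library for KLK5 and 37 to 86 for KLK14. Of the 15 alternatives, only library size only called KLK14 higher (log2 fold change 0.94, edgeR adjusted p = 0.0465). The cysteine protease gene CTSV had a log2 fold change of -0.35 (edgeR adjusted p = 0.0214), a call that was lost in 7 of the 15 alternatives, among them those without each LGR5-high library (adjusted p = 0.119 and 0.0652) and without the LGR5-negative library of pig 88R (0.077). SPINK5, which encodes the inhibitor of these kallikreins, had 52.6 and 70.7 CPM in LGR5-high and 114 and 61.6 CPM in LGR5-negative of pigs 88R and 95R. The pigs went in opposite directions, with log2 fold changes of -1.12 and 0.20. SPINK5 was not called (edgeR adjusted p = 0.215), but it was with the replicate block in edgeR (0.046; 0.608, not called, in DESeq2) and without the LGR5-negative library of pig 95R (log2 fold change -0.90, adjusted p = 0.00961).

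The calcium that desmosomal cadherins need is handled by 2 pumps whose loss opens the junctions in inherited blistering disease. ATP2A2, the pump of the endoplasmic reticulum affected in Darier disease, had 250 and 224 CPM in LGR5-high and 317 and 312 CPM in LGR5-negative. Its log2 fold change was -0.41 (edgeR adjusted p = 0.0131). The call was lost with library size only (log2 fold change -0.18), a t-test (Student) of log2 CPM and Bonferroni adjustment, and without the LGR5-high library of pig 95R (adjusted p = 0.088). ATP2C1, the Golgi pump affected in Hailey-Hailey disease, had 156 and 167 CPM in LGR5-high and 134 and 141 CPM in LGR5-negative. Its log2 fold change was 0.24 (95% interval 0.04 to 0.43, edgeR adjusted p = 0.0577), which was not called. With the replicate block the adjusted p-value was 0.0327 in edgeR and 0.117, not called, in DESeq2. In edgeR, ATP2C1 was also called higher with upper quartile scaling (adjusted p = 0.0217), library size only (0.00627) and a minimum of 10 counts in all libraries (0.0401).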

How the data were processed

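Poly(A) RNA of LGR5-high and LGR5-negative epidermal cells of pigs 88R and 95R was sequenced in paired ends. The authors deposited read counts for each gene symbol, with no normalisation. The submitters' processing notes name Trimmomatic 0.36, STAR 2.5.2b and featureCounts of Subread 1.5.2, and the genome build, annotation and strand setting are not given in the sources used here. All 29837 symbols matched RefSeq of Sscrofa11.1. The 1 entry without a name, with 0.36% to 0.63% of counts, was left out.

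The counts were fitted in R 4.3.3 with edgeR 4.0.16 (filterByExpr with minimum count 10 and minimum total 15, TMM normalisation, 2-sided quasi-likelihood test of the population, Benjamini-Hochberg adjustment over all 15980 genes kept). Standard errors and 95% intervals were derived from the quasi-likelihood F statistic. For the log2 fold change within a pig, a prior count of 2 was added. Alternatives used DESeq2 1.42.0, limma 3.58.1 (voom), other scalings and filters, Student's t-test on log2(CPM + 1), Bonferroni adjustment, the pig as a replicate block, and each library left out. The libraries were paired by animal, from the number shared in their labels, and libraries of the same pig deviated together from their population means (r = 0.37 across genes, which are not independent). Libraries of one population differed between pigs by more than counting noise (chi-square per degree of freedom 16.1 and 18.1). The scripts were tested on simulated data, and plots were drawn with matplotlib 3.10.9. The desmosome genes and the lists were chosen with earlier results of these data known. All members of the desmosomal, protease and calcium pump lists are described, and many cell type markers are given only as counts or sums of their list. LOC102160593, LOC110261189 and TTR were named for their position. Of the listed markers, KRT14, FLG, KRT71, KRT85, KRT17, KRT75 and LORICRIN had no row under these symbols in the table used here, though LOR did. The outer root sheath and companion layer list (KRT17 and KRT75) therefore gave no value. The remaining lists had 1 of 3 granular markers lower, 2 of 2 hair shaft markers lower, 4 of 5 melanocyte, 2 of 3 immune and 2 of 3 endothelial markers lower, 1 fibroblast marker higher and 3 lower, and 2 of 2 smooth muscle markers higher; with the replicate block 5 melanocyte, 3 immune and 3 endothelial markers were lower.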

Additional observations from a re-analysis of the deposited data

How the results depend on the processing

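With each library left out, 2 members were higher and 4 to 5 lower; a lone library is then assumed to vary like those of the other population. Over all tested genes 3632 were higher and 3508 lower, and these settings gave 2279 to 3169 higher and 2139 to 3004 lower, the lowest without the LGR5-high library of pig 95R (2340 higher without that of pig 88R). Library size only gave 5473 and 2326 genes, so that the share of higher calls went from 50.9% to 70.2%, and upper quartile scaling gave 59.4%; the cause was not tested. Under library size only the signs of DSP (0.0403), JUP (0.0376) and PKP3 (0.160) turned, and that of PKP3 also with upper quartile scaling (0.0321) and with libraries left out (-0.140 to 0.005, the latter without LGR5-high of pig 88R), all uncalled. A t-test (Student) of log2 CPM gave 544 and 502 genes, 2 members higher and 2 lower, and 0 higher and 1 lower of the 7 other desmosomal genes. Bonferroni adjustment left 194 and 130 genes, 1 member higher (DSC2) and 1 lower (DSC1), and 0 and 0 of the others. At an unadjusted p under 0.05, edgeR had 2 higher and 4 lower of the others and the t-test 0 and 4. PKP2 made it 2 higher among the others with upper quartile scaling, library size only, the replicate block and a minimum of 10 counts in all libraries. The replicate block called 4562 and 4342 genes; apart from the calls named in the report it changed none among the members and the other desmosomal genes. It cannot alter the mean log2 changes of the ratios DSC1 to DSC3 (-2.44) and DSG1 to DSG3 (-2.01), which are equal by construction. With a library left out these were -2.53 to -2.36 and -2.03 to -1.99. DSG4 and KLK7 had under 100 counts in some libraries, and KLK5 and KLK14 had under 100 counts in every library.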
